A study of Mus musculus with 52 samples.

Results

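The regions described here are 2250 enhancers of mouse embryonic stem cells (mESCs) that lie inside genes and overlap no enhancer of epiblast-like cells (EpiLCs). They are 25.6% of the 8794 mESC enhancers in the series and are called mESC-only enhancers inside genes. They were chosen by row, length and position in the deposited tables, with no signal value. Of the 8794 regions, 8563 remained once the leading block of the table was set aside, 7879 of these were under 5000 bp, 4817 overlapped no EpiLC enhancer, and 4716 had their centre over 1 kb from every transcription start site (TSS) of the deposited gene table. The 2250 are those whose centre also lay inside a gene interval of at most 3.2 Mb, and the shortest such interval is called the host gene.

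The study profiled histone marks, H3.3, RNA polymerase II and Med1 by chromatin immunoprecipitation in 52 libraries. Its cells were naive mESCs of C57BL6/129Sv background, kept without feeders in LIF with inhibitors of GSK3 and MEK1, and EpiLCs taken 48 hours into differentiation. Genotypes were cK27R (lysine 27 mutated in canonical H3 only), pK27R (mutated in all H3), SUZ12KO, H3-3KO and pK27WT, set against control ABE cells. The enhancer tables were defined in separate publications on other cultures and lifted over to mm10, signal per library was not analysed here, and differences in definition and in cell state cannot be told apart.

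Enhancers are stretches of DNA bound by transcription factors that raise the activity of promoters, often over long distances, and many lie in introns of the gene they act on or of a neighbour. In naive mESCs, OCT4 and SOX2 bind side by side at many enhancers, together with NANOG, ESRRB and Kruppel-like factors (KLFs). When cells move to the formative state that EpiLCs resemble, many such enhancers lose their activity and others, often bound by OTX2 or ZIC factors, gain it. The mESC set is known to have been built from sites bound by OCT4, SOX2 and NANOG, so octamer and SOX matches at region centres belong to how the set was made and are given as description.

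The sequences printed first are members inside 11 of the 12 host genes named as holding most members (ties by symbol) whose region holds the octamer ATGCAAAT, the element read by POU factors such as OCT4. Each shows 60 bp on either side, read 5' to 3' on the strand of the match, with the octamer in capitals (GRCm38/mm10, sequence from RefSeq). Members in genes of the naive and general pluripotency lists are not among them.
Fhit, chr14:10422251-10422378, plus strand: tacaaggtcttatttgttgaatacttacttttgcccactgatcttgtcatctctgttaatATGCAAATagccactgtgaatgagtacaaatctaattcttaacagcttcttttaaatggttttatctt
Smyd3, chr1:179198086-179198213, minus strand: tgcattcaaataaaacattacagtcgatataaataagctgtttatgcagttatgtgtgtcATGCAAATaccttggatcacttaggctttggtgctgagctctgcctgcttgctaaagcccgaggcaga
Asic2, chr11:81514668-81514795, minus strand: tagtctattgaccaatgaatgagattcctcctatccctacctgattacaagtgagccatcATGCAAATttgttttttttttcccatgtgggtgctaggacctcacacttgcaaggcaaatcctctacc
Asic2, chr11:81560425-81560552, plus strand: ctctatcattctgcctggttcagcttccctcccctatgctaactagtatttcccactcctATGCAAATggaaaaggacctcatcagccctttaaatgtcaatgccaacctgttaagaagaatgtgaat
Pard3, chr8:127268169-127268296, plus strand: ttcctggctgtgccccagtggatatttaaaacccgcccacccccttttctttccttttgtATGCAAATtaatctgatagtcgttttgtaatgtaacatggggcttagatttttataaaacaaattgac
Magi2, chr5:19882968-19883095, minus strand: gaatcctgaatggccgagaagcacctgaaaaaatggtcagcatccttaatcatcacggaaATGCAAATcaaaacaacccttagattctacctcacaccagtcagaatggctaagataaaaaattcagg
Opcml, chr9:28255699-28255826, plus strand: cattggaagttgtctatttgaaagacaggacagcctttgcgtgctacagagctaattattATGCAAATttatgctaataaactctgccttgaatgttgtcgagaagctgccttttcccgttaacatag
Fhit is a gene at a chromosomal fragile site and its octamer stood in a region 335 kb from the nearest EpiLC enhancer. The Opcml region lay 697 kb from one, and the Pard3 region 254 kb. The octamer lay within 100 bp of the region's centre in 5 of these 7 members, and 146 bp from it in Fhit and 426 bp from it in the 1123-bp region of Smyd3. The printed stretch of Magi2 is wholly marked as repeat in the reference (100% of its bases), against 0% in Fhit, Smyd3 and Opcml.

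A second set shows a shortened form of the OCT4-SOX2 composite, called the composite core. It holds part of a SOX element and most of an octamer, separated by a free base. The full composite was also searched and was found in 0 of the 2250 members and in 1 of 1346 retained enhancers. The core was found in 22 members, and those printed are among the farthest from an EpiLC enhancer. They were chosen after their values were seen, and capitals mark the core with its free base.
Epha5, chr5:84298928-84298999, minus strand: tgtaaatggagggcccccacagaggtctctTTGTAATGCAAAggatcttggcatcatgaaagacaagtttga
Prps1, chrX:140458384-140458455, plus strand: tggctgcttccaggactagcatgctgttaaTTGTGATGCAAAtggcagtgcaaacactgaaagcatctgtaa
Fndc1, chr17:7800032-7800103, minus strand: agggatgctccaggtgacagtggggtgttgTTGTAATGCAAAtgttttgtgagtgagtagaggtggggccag
Ctnnd2, chr15:30908165-30908236, plus strand: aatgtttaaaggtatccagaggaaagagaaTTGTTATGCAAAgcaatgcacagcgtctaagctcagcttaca
Borcs5, chr6:134695164-134695235, minus strand: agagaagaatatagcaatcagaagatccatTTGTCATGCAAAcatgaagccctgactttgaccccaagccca
Wwc2, chr8:47920974-47921045, minus strand: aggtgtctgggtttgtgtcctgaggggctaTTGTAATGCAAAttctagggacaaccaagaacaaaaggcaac
Ankrd27, chr7:35617601-35617672, minus strand: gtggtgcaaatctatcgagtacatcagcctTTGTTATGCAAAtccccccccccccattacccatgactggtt
Epha5, an ephrin receptor gene, holds the printed member that lies farthest from an EpiLC enhancer, at 874 kb. Ctnnd2 encodes a delta-catenin of cell junctions. The core stood 48 bp from the centre of the Epha5 region, 50 bp in Fndc1 and 109 bp in Prps1. Among the 22 cores the free base was T in 8, A in 7, C in 4 and G in 3. The base after the core was T in 10 of 22, which completes the octamer, and the base before it was T in 10 and A in 7.

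Octamers in these enhancers sat close to the middle of the region. Over whole regions there were 318 octamers, at a median of 74 bp from the centre, and 187 of them (58.8%) lay within 100 bp of it. Per 1000 regions, the 100-bp intervals on either side of the centre held 37.3 and 45.3 octamers, the next ones outward 15.6 on each side, and the ones after that 5.78. In the central 200 bp the density was 6.74 times that found 500 to 1500 bp away, with 186 octamers in the centre. SOX matches (CATTGTT) had 3.11 times, ESRRB matches (CAAGGTCA) 3.2 times and KLF matches (GGGTGTGG) 2.98 times their outer density, while ZIC matches (CCTGCTG) had 1.39 times. In retained mESC enhancers inside genes, which meet the same rule except that they do overlap an EpiLC enhancer (1346 regions), the central density was 5.60 times the outer one for octamers, 2.24 times for SOX and 2.26 times for ZIC.

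**Figure D1:**
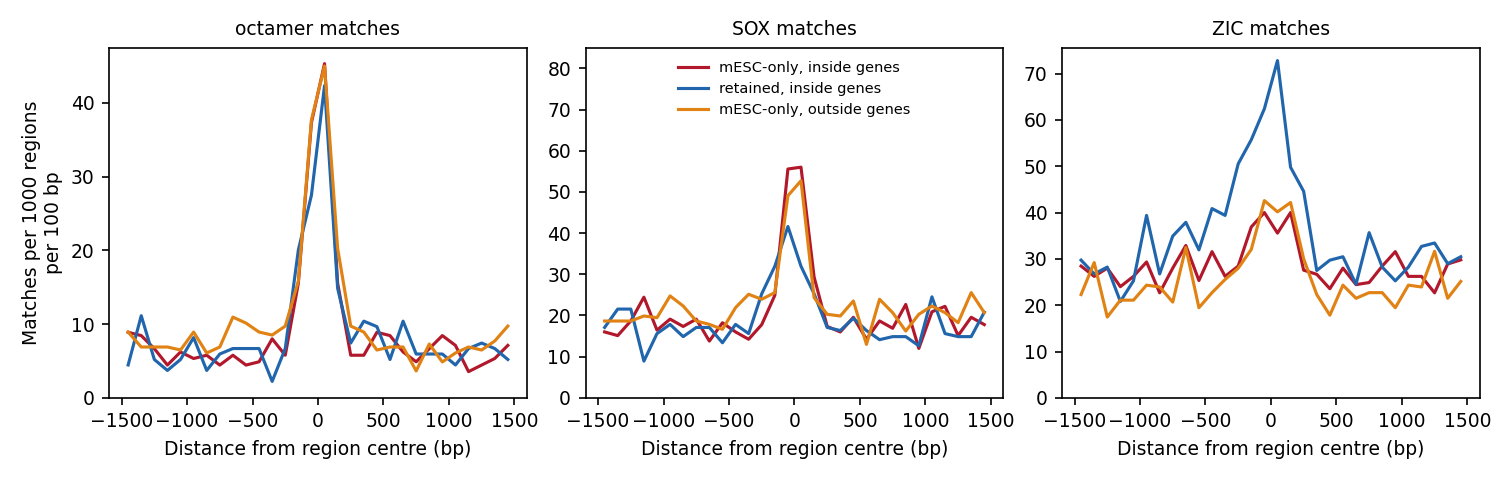
Motif matches per 1000 regions in 100-bp intervals (vertical axis) by distance from the region's centre in bp, for 2250 mESC-only enhancers inside genes (red), 1346 retained mESC enhancers inside genes (blue) and 2466 mESC-only enhancers outside genes (orange). Octamer matches in the mESC-only enhancers inside genes peak at 45.3 beside the centre, and ZIC matches there reach 40.0 against 72.8 in the retained enhancers.

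To compare regions of unequal width, motifs were counted in the central 500 bp on both strands, and the surroundings were taken as 500-bp windows centred 3 kb to either side (4500 windows, called flanks, of which 56 touch an EpiLC enhancer and 0 an mESC enhancer). The octamer was present in 252 of the 2250 mESC-only enhancers inside genes, or 11.2% (95% exact binomial interval 9.93 to 12.6%), against 3.42% of flanks (2.91 to 4.0%). That is 3.27 times the flank share. In the 408 members under 500 bp (18.1%) the window reached past the region, and retained enhancers were longer. The octamer was found in 10.3% of retained enhancers inside genes, 11.7% of mESC-only enhancers outside genes, 10.5% of all mESC enhancers and 5.27% of all EpiLC enhancers. The intervals of the mESC-only and the retained enhancers inside genes overlapped, since the retained ones spanned 8.75 to 12.1%. These intervals cover counting error only, because the tables are fixed lists without replicates and no difference between sets was tested.

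Matches for SOX factors, partners of OCT4, were in 16.9% of the mESC-only enhancers inside genes (15.4 to 18.5%), against 13.8% of retained enhancers (12 to 15.8%) and 9.56% of flanks. For ESRRB, an orphan nuclear receptor of the naive network, the shares were 8.22%, against 7.80% in retained enhancers and 3.13% in flanks. KLF matches stood in 8.18% of the mESC-only enhancers inside genes, against 7.43% of retained enhancers and 3.27% of flanks. The element of TCF and LEF factors (ATCAAAG), which act downstream of WNT and GSK3 inhibition, was in 11.9%, against 8.62% of retained enhancers and 8.33% of flanks. In all EpiLC enhancers the shares were 7.79% for SOX, 4.66% for ESRRB, 5.03% for KLF and 7.15% for TCF and LEF. STAT matches (TTCCNGGAA, with N for any base), the element of the LIF effector STAT3, were in 2.22% of the mESC-only enhancers inside genes, 2.68% of retained enhancers and 1.24% of flanks.

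Of the 16 motifs searched, ZIC matches differed most between mESC-only and retained enhancers in percentage points. They were in 355 mESC-only enhancers inside genes, or 15.8% (14.3 to 17.4%), and in 328 retained enhancers inside genes, or 24.4% (22.1 to 26.8%), a difference of -8.59 percentage points. The mESC-only enhancers outside genes had 16.8%, all EpiLC enhancers 22.5% and flanks 11.7%. GC content moved with it. Within the members' own GC classes, ZIC shares were 10.8% against 11.9% in retained enhancers up to 42.6% GC, 14.8% against 25.9% in the middle class, and 21.6% against 28.3% above 46.6% GC. The low-GC class thus showed little of the difference and the other classes held it. OTX matches (GGATTA), the element of OTX2, were in 18.8% of the mESC-only enhancers inside genes, 23.0% of retained enhancers and 18.9% of flanks, so the mESC-only share was that of the surroundings. TEAD matches (ACATTCC) stood in 7.60% of the mESC-only enhancers inside genes, 9.44% of retained enhancers and 6.80% of flanks. AP-1 matches (TGACTCA) were in 9.73% of the mESC-only enhancers inside genes, 10.6% of retained enhancers and 8.13% of flanks. GC boxes (GGGGCGGGG) were in 49 mESC-only enhancers inside genes (2.18%), 55 retained enhancers (4.09%) and 1.24% of flanks. As a ratio of the members' share to the retained share, the GC box differed more than ZIC. TFCP2L1 matches, searched with a longer letter pattern that is not printed here, stood in 124 mESC-only enhancers inside genes (5.51%). They were in 5.80% of retained enhancers, 6.12% of all EpiLC enhancers and 4.07% of flanks.

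**Figure D2:**
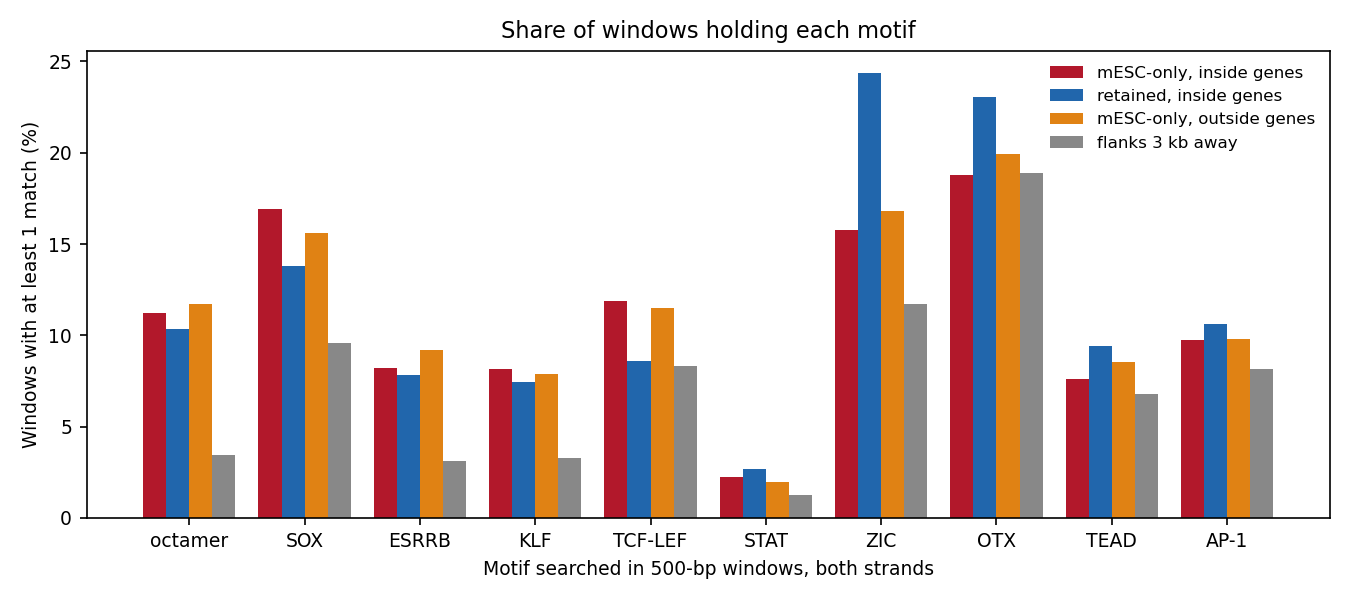
Share of 500-bp windows (vertical axis, percent) with at least 1 match to each of 10 motifs, for mESC-only enhancers inside genes (red), retained enhancers inside genes (blue), mESC-only enhancers outside genes (orange) and flanks (grey). The red octamer bar stands at 11.2% against 3.42% for flanks, and the red ZIC bar at 15.8% against 24.4% for retained enhancers.

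At least 1 of the octamer, SOX, ESRRB and KLF elements was found in 871 of the mESC-only enhancers inside genes (38.7%), against 35.3% of retained enhancers, 38.0% of those outside genes and 18.3% of flanks. That leaves 1379 members (61.3%) without an exact match to any of them, and no match says only that these letters are not in the window. With up to 1 mismatch the octamer was in 64.2% of members and in 44.3% of flanks. Elements of 2 or more kinds were in 124 members (5.51%), against 3.94% of retained enhancers, 5.96% of mESC-only enhancers outside genes and 1.07% of flanks. In 7 members 3 kinds met, which were named after their values were seen. Those in Pard3, Nt5dc1 and Akap6 held octamer, SOX and ESRRB matches, those in St8sia6, Atp6v0a4 and Rhob octamer, SOX and KLF matches, and that in Mcc octamer, ESRRB and KLF matches. Akap6 encodes an anchor of protein kinase A and its region lay 457 kb from an EpiLC enhancer, while Rhob, a small GTPase gene, had its region 1.80 kb from the nearest TSS. The composite core was in 22 members (0.978%), 13 retained enhancers (0.966%), 7 EpiLC-only distal enhancers inside genes (0.181%) and 0 of 4500 flanks, where 3 counts of the total allow a share of up to 0.0667%.

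The share with an octamer differed along the distance to the EpiLC set. Members were put in 4 groups of equal number by the gap to the nearest EpiLC enhancer, with median gaps of 9.92, 32.1, 79.4 and 219 kb. The octamer was in 8.17, 10.1, 11.6 and 14.9% of them in this order. KLF matches went the other way, with 10.1, 8.90, 6.76 and 6.93%. Median GC content was 45.6, 44.8, 44.4 and 43.4% in the same groups, and its part in these shares was not tested. SOX shares were 15.1, 17.4, 17.6 and 17.6% in the same order, and ZIC shares lay between 14.8 and 16.9%, in no order. Hosts that hold 3 or more members had an octamer in 12.9% and a SOX match in 21.6% of them (287 members), against 10.8% and 15.9% where the host held 1 member (1551 members).

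The mESC-only enhancers inside genes were poorer in GC than the retained ones. Median GC content of the central 500 bp was 44.4%, against 46.6% in retained enhancers, 44.0% in mESC-only enhancers outside genes, 49.0% in EpiLC-only distal enhancers inside genes and 43.4% in flanks. They held 4.93 CpG sites on average, against 5.63 in retained enhancers and 5.28 in flanks. Marked repeats covered 17.3% of the central 500 bp on average, against 19.2% in retained enhancers, 21.2% outside genes and 24.4% in flanks. By these means the windows of the members were the least repeat-rich of these 4 sets. The medians of members and retained enhancers were close, at 13.5% and 13.8%.

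Members were short and, like the other mESC sets, lay apart from other mESC enhancers. Median length was 638 bp, with quartiles of 535 and 760 bp, against 771.5 bp in retained enhancers, 622 bp outside genes and 1550 bp in EpiLC-only distal enhancers inside genes. An overlap of 1 bp is met more readily by a longer region, so length is not independent of the rule. Of the members, 2107 (93.6%) were under 1000 bp and 57 (2.53%) were 2000 bp or longer. The gap to the nearest other mESC enhancer had a median of 74.3 kb, against 57.8 kb for retained enhancers and 85.7 kb outside genes. Its smallest value was 12516 bp in each of these sets, so such spacing is not particular to the members. Among the longest members were those in Dzip1 (4889 bp), which acts in cilium formation, Ncoa7 (4883 bp), Thada (4839 bp) and Rfx4 (4788 bp). The shortest were 13 bp in Grid1, a glutamate receptor gene, 47 bp in D430036J16Rik, 64 bp in Scyl2, 83 bp in Abcd3 and 90 bp in Ankib1.

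Values at the limits of the rule were close on either side. Regions in Zbtb44 (5068 bp), Adamtsl1 (5484 bp) and Adgrb1 (5487 bp) were left out for length, while those in Dzip1 and Ncoa7 were kept. At the TSS limit the members in Igf2 (1031 bp), Wsb1 (1049 bp) and Sema4a (1058 bp) were kept, and regions in Hes3 (992 bp), Lyg1 (974 bp) and Pkmyt1 (930 bp) were not. Igf2 is the imprinted growth factor gene and Sema4a encodes a semaphorin.

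Members lay far from start sites and evenly along their hosts. Median distance from the centre to the nearest TSS was 34.3 kb, against 27.4 kb for retained enhancers and 26.4 kb for EpiLC-only distal enhancers inside genes. Over 100 kb from every TSS of the deposited gene table were 503 members (22.4%), against 15.6% of retained enhancers. Counted to the start of any GENCODE M21 transcript instead, with members chosen anew by it, the median was 11.1 kb. The nearest TSS was that of the host in 1486 members (66.0%) and that of another gene in the rest. Along the host, from its TSS to its end, 5 successive stretches of equal length held 20.6, 19.5, 20.4, 19.6 and 19.8% of members. Retained enhancers leaned towards the start, with 25, 20.7, 19.0, 17.7 and 17.6%. The median position was 49.4% of the host's length, against 43.6% for retained enhancers and 45.3% for the EpiLC-only ones.

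Introns held most members. By GENCODE M21 the centre was intronic in 1939 (86.2%), within 1 kb of an annotated TSS in 168 (7.47%), in a noncoding exon or UTR in 93 (4.13%), in a coding exon in 26 (1.16%) and intergenic in 24 (1.07%). Retained enhancers had 82.3% in introns and 10.8% within 1 kb of a TSS. The first intron held 571 of the 2110 members placed in an intron of the host's model (27.1%). Averaged over these members, it made up 26.7% of the host's intron bases. Bases within 1 kb of a TSS, which the rule excludes, are part of these averages. For retained enhancers the first intron held 34.4%, with 29.5% of the bases by the same average. The longest intron held 43.3% of members, with 42.2% of the bases on average, against 51.2% of retained enhancers, with 45.2%. The members thus followed the length of introns closely, and the retained ones were more often in the first and in the longest intron than its length gives.

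**Figure D3:**
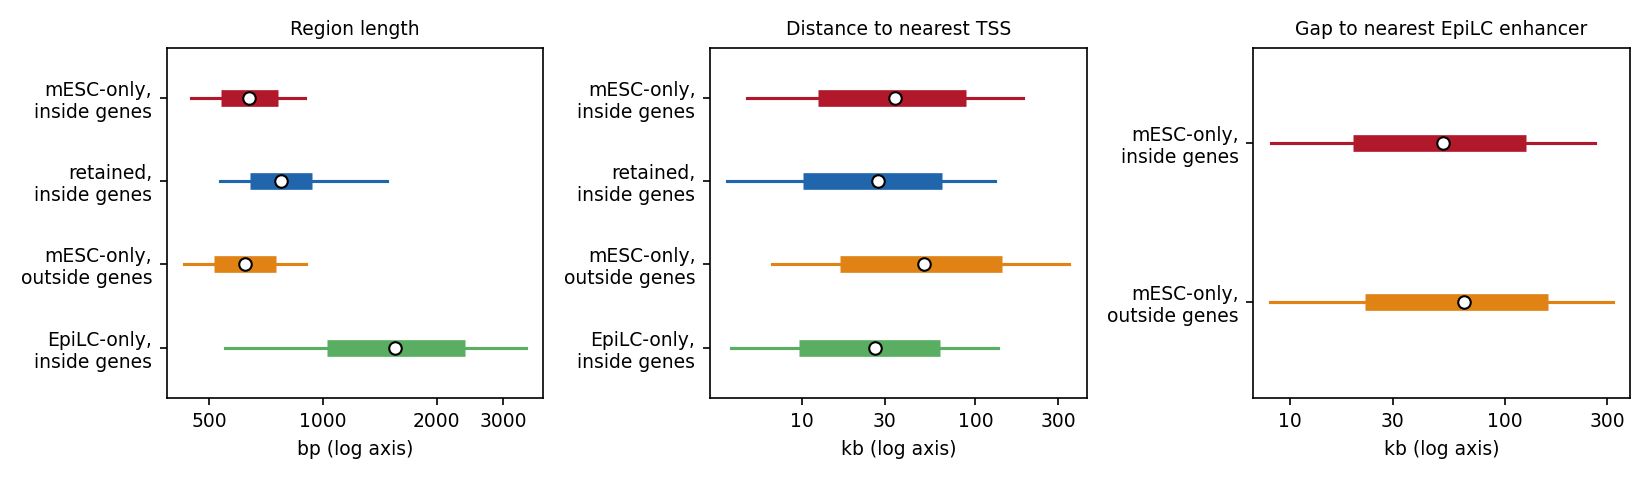
Region length in bp, distance from the centre to the nearest TSS in kb and gap to the nearest EpiLC enhancer in kb (log axes) for mESC-only enhancers inside genes (red), retained enhancers inside genes (blue), mESC-only enhancers outside genes (orange) and EpiLC-only distal enhancers inside genes (green). Circles are medians, bars span the quartiles and lines the central 80% of regions, and the red medians are 638 bp, 34.3 kb and 51.4 kb.

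The gap to the nearest EpiLC enhancer varied widely among members. The gap of ordinary positions inside genes is not given here, so these values are description only. The median gap was 51.4 kb, against 64.8 kb for mESC-only enhancers outside genes. Within 1 kb of an EpiLC enhancer were 25 members, within 10 kb 286 (12.7%) and within 100 kb 1555 (69.1%). The smallest gaps were 12 bp in Cadps2, 63 bp in Bbs9, 124 bp in Wwox, 283 bp in Cdh13 and 376 bp in Etl4, so these members are mESC-only by a small margin. The widest were 1779 kb and 1343 kb for a pair of members in Erbb4, 1354 kb in Slit2, 1318 kb in Lrrtm4 and 1251 kb in Fmr1. Erbb4 encodes a neuregulin receptor, Slit2 a guidance ligand of ROBO receptors and Fmr1 an RNA-binding protein of synapses.

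The members fell in 1835 host genes, or 7.58% of the 24198 gene intervals of at most 3.2 Mb. Protein-coding genes made up 94.2% of hosts, and 81 hosts were long noncoding RNAs. A host held 1 member in 1551 cases (84.5%), 2 in 206 and 3 or more in 78, and those 78 held 287 members (12.8%). Retained enhancers lay in 325 of the hosts, which is 17.7% of the members' hosts and 27.7% of the 1174 retained hosts. Genes in the length classes of the members' hosts hosted a retained enhancer in 14.1%, and all intervals did in 4.85%. In the length classes of the retained hosts 22% of genes hosted a member. EpiLC-only distal enhancers lay in 611, or 33.3% of the members' hosts and 23.2% of the 2636 EpiLC-only hosts. The length classes give 28.2% and 19.6% for these shares, and 10.9% of all intervals hosted an EpiLC-only enhancer. No EpiLC enhancer of any kind was centred in 1002 hosts (54.6%), which held 1119 members (49.7%). Of all intervals 79.3% had none, and the length classes of the members' hosts give 58.7%, so this share was near that of genes of like length.

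Hosts were long genes. The median host spanned 94.7 kb, against 14.5 kb for all intervals. With intervals put in 10 length classes of about equal number, the share that hosted a member was 0% in the shortest class, 2.44% in the fifth, 16.2% in the ninth and 35.7% in the longest, which held 1241 members. Density varied less, at 1.60 to 2.44 members per Mb from the third to the ninth class and 1.78 per Mb in the longest. Retained enhancers had 1.25 to 1.59 per Mb over the same classes and 0.991 per Mb in the longest.

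Of the 12 genes named as holding most members, 11 are described here, and these were 503 kb long or longer. Fhit, a diadenosine triphosphate hydrolase, held 7 members in 1612 kb (chr14:9550094-11162035), with 1 retained and 1 EpiLC-only enhancer. Smyd3, a lysine methyltransferase, also held 7, in 563 kb (chr1:178955039-179518003). Asic2, an acid-sensing ion channel, held 6 with 4 retained enhancers, and Auts2, a partner of variant Polycomb complexes, 6 with 2. Magi2, a synaptic scaffold, held 5 members and as many retained enhancers. Ptprn2, a phosphatase-like protein of secretory granules, held 5 with 2 retained ones. A further gene, Wwox, an oxidoreductase, also held 5 members (chr8:114439652-115352712), so that 13 genes held 5 or more, and ties were settled by symbol.

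Pard3, a scaffold of cell polarity, held 6 members and 0 other enhancers of either table (chr8:127064056-127612286). Its 6 regions measured 940, 663, 808, 479, 780 and 539 bp, all in introns, at 25.8, 37.2, 50.9, 60.9, 79.4 and 81.9% of the gene. The gap to an EpiLC enhancer was at least 191 kb in each, and at most 383 kb. The region at 37.2% carries the octamer printed above beside SOX and ESRRB matches. Clstn2, a synaptic cadherin-related protein, Lrrtm4, a synaptic adhesion protein, and Opcml, an adhesion protein of the IgLON family, held 5 members each and no EpiLC or retained enhancer. Dock1, an activator of RAC1, held 5 members among 6 mESC enhancers in all, without a retained or EpiLC enhancer, at 1.8, 5.7, 41.7, 78.5 and 93.2% of its length. In Lrrtm4 the 5 gaps to an EpiLC enhancer ran from 655 to 1318 kb, and in Opcml from 683 to 856 kb.

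Within Smyd3 the 7 members lay in a pair of clusters. They stood at 3.0, 5.4, 9.8 and 13.5% of the gene and again at 54.3, 56.7 and 60.5%. The 4 near the start held 3 ESRRB matches and a KLF match, and the 3 farther in held neither in the central 500 bp. In Fhit 3 members sat at 90.8, 92.4 and 94.9% of the gene and the others at 2.6, 15.7, 38.9 and 45.9%. By density among hosts with at least 3 members, Stk24, a kinase gene, led with 3.23 per 100 kb. Crtac1 had 2.69, the neuropilin gene Nrp2 2.60, Nsf, an ATPase of vesicle fusion, 2.27 and the adaptor gene Shc3 2.21.

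**Figure D4:**
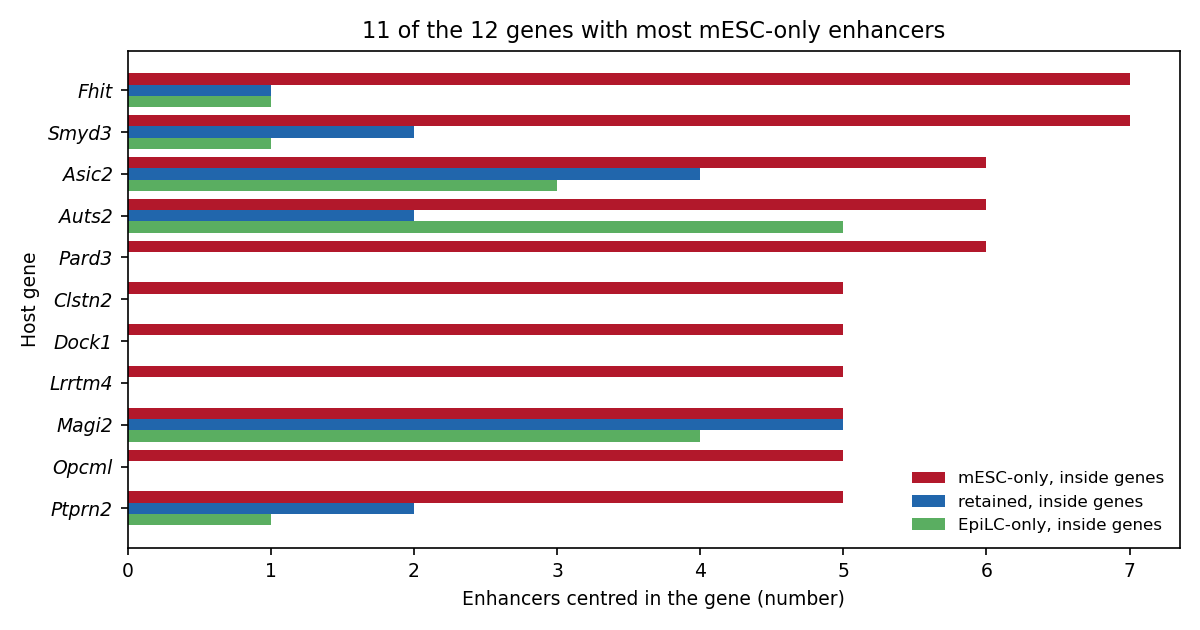
Number of enhancers centred in each of 11 of the 12 genes with most mESC-only enhancers (horizontal axis), as mESC-only (red), retained (blue) and EpiLC-only (green). Red bars run from 5 to 7, and Pard3, Clstn2, Dock1, Lrrtm4 and Opcml show no blue or green bar.

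Each gene list is given with the share of its genes that host a member, followed by the share among all intervals of the same length classes. Counts of list genes with other enhancers, where given, come without such a share. Naive pluripotency genes hosted members in 2 of 24 (8.33%, against 8.04% for their length classes). These were Fbxo15, a target of OCT4, and Jam2, a junction protein gene. Of the 24, 9 had an mESC enhancer of any kind centred in the gene and 7 of these had one from the leading block of the table, which the rule sets aside. General pluripotency genes had a member in 1 of 20 (5.0%, against 4.86%), Lin28b, a gene of let-7 control, whose region of 739 bp held a SOX match. Formative and primed epiblast genes hosted in 2 of 22 (9.09%, against 10.4%), namely Cdh2 (N-cadherin) and Foxp1 with 2 members each. The shares of these 3 lists lay near those of their length classes.

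Among signalling genes, the FGF and ERK list had members in 5 of 35 (14.3%, against 11%). Sos1, the RAS exchange factor, held 2, and Braf and Fgfr2 1 each. The WNT list had 3 of 34 (8.82%, against 12.1%), with 2 members in Gsk3b, whose product is a target of the inhibitors in the medium, and 1 each in Wnt3 and Wnt5a. The NODAL and BMP list had 4 of 31 (12.9%, against 12.9%), in the receptor genes Acvr1b, Bmpr1b and Tgfbr3 and in Smad9. LIF and JAK-STAT genes hosted 0 of 19, where the length classes give 11.3%. The list with 0 members still had 3 genes with a retained enhancer inside.

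In the remodeller list 10 of 27 chromatin genes hosted a member (37.0%, against 20%). Arid1b, a BAF subunit, held 3 members, and Arid2, Chd1 and Chd9 1 each. Polycomb genes had 6 of 33 (18.2%, against 11.7%), with 6 members in Auts2, 2 in Phc2 of PRC1 and 1 each in Eed and Jarid2 of PRC2. Acetyltransferases, deacetylases and Mediator had 4 of 28 (14.3%, against 14.9%), in Crebbp, Hdac7, Kat6a and Med13l. DNA methylation genes had 1 of 14, Tet3 (7.14%, against 11.3%).

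Cell adhesion and axon guidance genes hosted in 19 of 40 (47.5%, against 31.2%), with 37 members, 4 in the semaphorin receptor gene Plxna4, 4 in Slit3 and 3 each in the catenin genes Ctnna3 and Ctnnd2. Neural regulators had 11 of 29 (37.9%, against 19.1%), with 3 members each in Npas3 and Rfx4. Cell cycle and DNA repair genes had 8 of 30 (26.7%, against 12%), with 14 members of which Fhit held 7, and 1 each in Brca1, Cdk6 and Fancc. The median interval was 214, 130 and 29.7 kb in these lists, in this order, and 181 kb in the longest length class. That class is wide, and Ctnna3 spans 1574 kb and Npas3 823.5 kb. Length was not matched within a class, and its part in these differences was not tested. In these lists, in the same order, 8, 10 and 3 genes held a retained enhancer. An EpiLC enhancer of any kind was centred in 24, 13 and 16 of their genes. Of all intervals 4.85% hosted a retained enhancer and 79.3% had no EpiLC enhancer centred inside. In the longest length class 22.5% hosted a retained enhancer. These counts were not set against genes of like length.

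Lists for other tissues and a list of ribosomal protein genes are given for comparison. Fibroblast and feeder markers hosted in 2 of 20 (10.0%, against 11.2%), Col5a2 and Fbn1. Muscle and liver genes hosted in 4 of 22 (18.2%, against 14.9%), with 4 members in Dmd, the dystrophin gene of 2256 kb, and 1 each in Abcc2, Fga and Myom1. Ribosomal protein genes, which are short, hosted 0 of 35, where the length classes give 0.542%, or 0.19 genes. An EpiLC enhancer was centred inside 27 of these genes, counted at any distance from a TSS. Members must lie over 1 kb from every TSS, so the 27 and the 0 were not counted by the same rule. The lists were not tested against each other or against all genes.

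**Figure D5:**
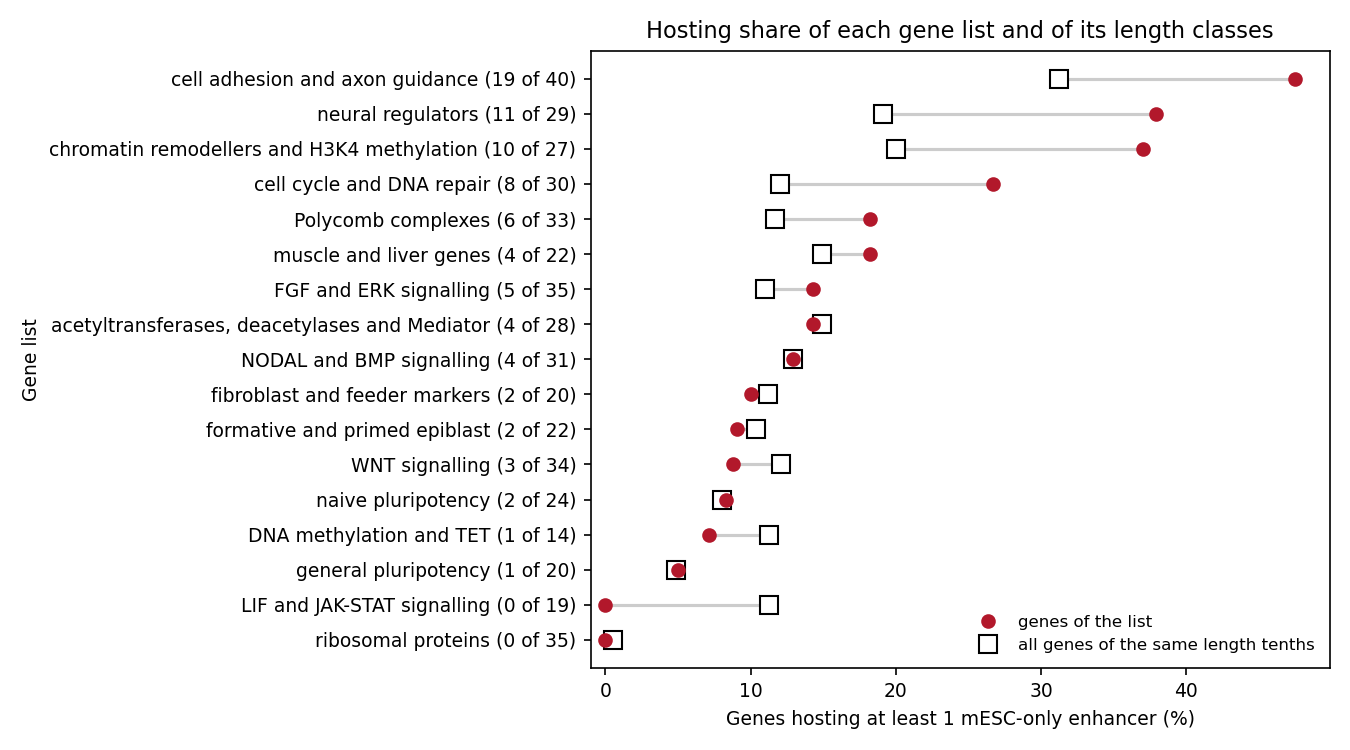
Share of genes that host at least 1 mESC-only enhancer (horizontal axis, percent) for each of 17 gene lists (red dots, with the number of hosts in brackets) and for all gene intervals of the same length classes (open squares). Cell adhesion and axon guidance genes stand at 47.5% against 31.2%, and naive pluripotency genes at 8.33% against 8.04%.

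Members were spread over all autosomes and the X chromosome. Per Mb of gene intervals they ranged from 1.34 on chromosome X and 1.48 on chromosome 7 to 2.72 on chromosome 16 and 2.73 on chromosome 18. Among mESC enhancers of both kinds inside genes, mESC-only ones made up 62.6% over all chromosomes, with 52.8% on chromosome 7, 72.6% on chromosome X and 73.6% on chromosome 15.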

How the data were processed

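The deposited tables list regions by their position and strand in mm10 and hold genome coordinates, not a score, signal or other measurement per library. Per the series' design text, the authors took the mESC and EpiLC enhancers from earlier publications and lifted them over to mm10. Tools in the submitters' processing notes are bedtools 2.29.2, Bowtie2 2.3.4.1 and Trimmomatic 0.38. With 0 columns of values per library, depth is unknown and there is no replicate error.

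Coordinates were read as starting from 0 and are printed from 1. Whether the enhancer tables count from 0 or 1 could not be settled, so their starts are uncertain by 1 bp. Names of gene intervals come from identical ends in RefSeq (12038), in GENCODE M21 genes (1406) or transcripts (1215), or from an annotated gene on the same strand whose overlap reached 0.8 of the length both cover together (9152). Without a name stayed 591, and 26 members have an unnamed host. Sequence came from the RefSeq GRCm38 assembly, read with pysam 0.24.0 in Python 3.11.15. Classification and motif search were tested on simulated data.

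Named genes are the 12 hosts with most members (ties by symbol), the 5 densest hosts, up to 4 genes per list, the extremes of length and gap, and members at the limits. Hosts with the widest and narrowest gaps were added after their values were seen. The members, the 18 gene lists and the motifs were chosen with earlier results of these data known. Some genes, 1 gene list and their sequences are not reported here. Sets were compared as descriptions, with no test.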

Additional observations from a re-analysis of the deposited data

How the results depend on the processing

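No paired analysis was possible because the tables hold no value per library, and for the same reason no replicate could be left out. Of 111 alternative values, 100 stayed within the 95% interval of the value reported (counts within 1.5 times of it) and 11 moved. Median distance to the nearest TSS became 11.09 kb with GENCODE TSSs and 41.1 kb with centres over 5 kb from a TSS, which also put the median position at 53% of the host. Median gap to an EpiLC enhancer became 47.52 kb with overlap counted from 50% of the region. Median GC content was 44.67% in the central 300 bp. The octamer share was 9.644% in the central 300 bp, 13.11% over whole regions and 64.18% with up to 1 mismatch, by construction of narrower, wider or looser searches. Added after seeing the data, the octamer share over that of flanks, 3.27 times, became 4.47 times in the central 300 bp and 4 times with flanks 2 kb away, and the ZIC difference between members and retained enhancers became -14.88 percentage points over whole regions, which are longer in the retained set. The ZIC difference kept its sign in all 11 alternatives. Counting all gene intervals, including the 84 longer than 3.2 Mb, gave 3077 members in 1856 host genes. The rise in TSS distance with centres over 5 kb from a TSS follows by construction, since only nearer members drop out. With overlap counted from 50% of the region, the members added overlap an EpiLC enhancer in part. The smaller median gap thus also follows by construction. The cause of the remaining moves was not tested.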
